A study of Mus musculus with 6 samples.

Results

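Toll-like receptors, cytosolic sensors and the proteins that relay their signals were examined in the mouse dendritic cell line DC2.4 and in its derivative labelled PD-L1 knockout. The 39 genes were taken by symbol from the table of read counts, and 39 of the table's 31205 genes matched. They comprised 5 surface Toll-like receptors, 7 endosomal ones, 5 cytosolic sensors, and 22 co-receptors, adaptors, kinases, ubiquitin ligases and transcription factors. The controls were 3 libraries of DC2.4 cells labelled Control, and the other 3 came from DC2.4 cells with the genotype PD-L1 knockout; PD-L1 is a surface protein that restrains T cells through PD-1. The labels name no treatment, no microbial ligand and no clone number, so the values describe unstimulated cultures as far as the labels go. Nor do they say whether replicates are separate cultures, so the p-values reflect only library-to-library spread, possibly technical. In bulk RNA fewer cells expressing a gene and less RNA per cell cannot be told apart.

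Toll-like receptors bind conserved microbial molecules outside the cell or inside endosomes. Most signal through the adaptor MYD88, which assembles IRAK kinases and the ubiquitin ligase TRAF6 and so activates the kinase TAK1, NF-kB and interferon regulatory factors. Other sensors, such as NOD1, NOD2 and AIM2, act in the cytosol. In dendritic cells and macrophages these pathways start cytokine production and the maturation that precedes T cell priming.

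Library totals ran from 10918498 to 23250065 counts in control and from 13501776 to 21133688 in knockout. Counts of Cd274, the gene of PD-L1, were 52, 99 and 171 in control libraries 1 to 3 against 102, 81 and 163 for knockout (0.28 on the log2 scale, SE 0.25, edgeR adjusted p = 0.415). The library labels are thus not checked by the transcript level of the targeted gene, and all directions below rest on the labels. Of 18 dendritic and myeloid markers, 17 had a count, and their summed level, most of it from a few abundant genes such as Cd68, ran from 1977 to 2274 CPM (counts scaled to a common library size with TMM factors) in control and from 1927 to 2391 in knockout. Single markers moved beneath that sum: of 13 tested, Lyz2 (-2.81, edgeR adjusted p = 9.34e-05), Csf1r (-0.72, 0.0143) and Zbtb46 (-0.72, 0.0490) were lower in knockout and Fcer1g was higher (0.76, 0.0127). The part of these shifts in the results below was not tested. The dendritic and myeloid markers Zbtb46, Irf8, Itgax and Cd74 were counted in every library, at no less than 4.28, 40.8, 25.9 and 217 CPM. Other markers of conventional dendritic cells were at or near 0: Clec9a had no count in any library, Flt3 at most 1, Batf3 and the class II gene H2-Ab1 at most 4 each and Xcr1 at most 6. Control library 2 held 217 CPM of 10 fibroblast markers, mostly from Col1a1 and Fn1, against at most 0.537 in any other library, and 3 of these markers were at 0 everywhere. Calls that ended without this library are named as such below, and the part of these transcripts in them was not tested. Lymphocyte markers summed to at most 0.895 CPM, and epithelial and endothelial markers to at most 1.01.

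Tlr2, Tlr13, Tlr7, Tlr4, Tlr9 and Tlr6 made up nearly all receptor transcripts, and their order was led by Tlr2 in both groups. To compare genes, CPM was divided by the exon length in kilobases. On that scale the control level of Tlr2, the receptor of bacterial lipopeptides, was 33.7 ± 5.05 (SD, n = 3). Tlr13, which binds bacterial ribosomal RNA in mouse endosomes, followed at 21.1 ± 2.03 CPM per kilobase. Tlr7, a sensor of single-stranded RNA, was at 11.2 ± 1.84, and Tlr4, the lipopolysaccharide receptor, at 4.73 ± 0.671. Tlr9, a sensor of unmethylated CpG DNA, was at 2.97 ± 0.492 and Tlr6, a partner of Tlr2, at 1.68 ± 0.132 CPM per kilobase. The control ranges of neighbours in this order did not overlap, down to Tlr1, another partner of Tlr2, at 0.380 ± 0.242.

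In the knockout libraries Tlr2 was at 55.0 ± 8.20 CPM per kilobase and again first. Tlr13 (14.1 ± 1.33) and Tlr7 (11.8 ± 1.97) now had overlapping ranges, 12.8 to 15.5 against 10.4 to 14.1. The ranges of Tlr9 (0.811 to 1.98) and Tlr6 (0.828 to 0.955) overlapped as well. The other receptors were close to the limit of detection. Tlr3, a sensor of double-stranded RNA, had 2 to 8 counts per library. Tlr5, the flagellin receptor, had 5 counts over the control libraries and none in knockout. Tlr12, a profilin receptor, had 1 count in control library 1 and none elsewhere. Tlr11, the other profilin receptor, had none in any library, which allows up to 0.0565 CPM over the control group and 0.0622 over the knockout group (3 counts over a group; counting error only).

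**Figure D1:**
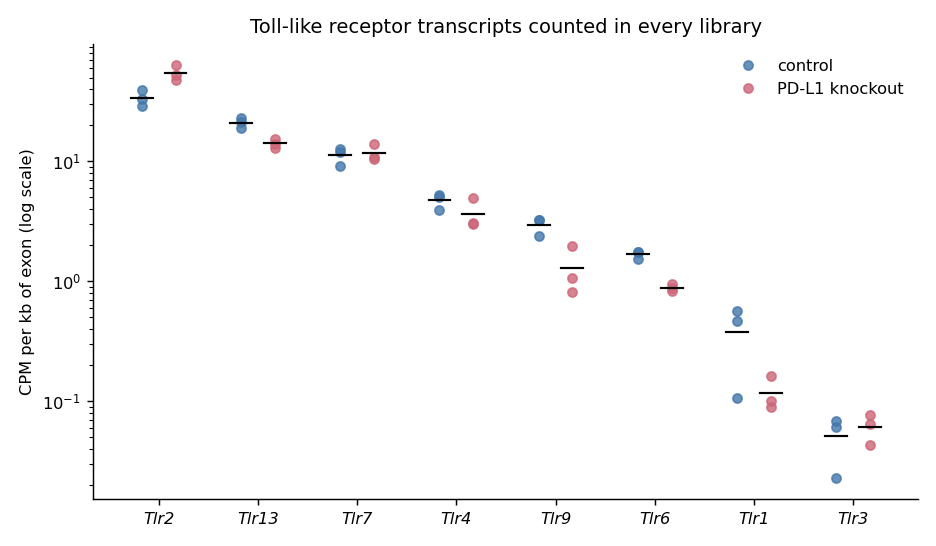
Levels of the 8 Toll-like receptor genes counted in every library, as CPM per kilobase of exon on a log axis; points are libraries and bars are means of 3. Tlr2 is the highest in both groups, at 33.7 in control and 55.0 in knockout, and Tlr6 is lower in all 3 knockout libraries.

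Among receptor transcripts the share of Tlr2 was larger in knockout. It was 51.2%, 39.0% and 42.8% of the summed CPM per kilobase in control libraries 1 to 3, and 63.1%, 62.0% and 64.7% in knockout. The endosomal receptors together held 46.7% ± 5.08 in control and 31.4% ± 1.16 in knockout (SD, n = 3). The groups did not overlap for either share, with an exact two-sided permutation p of 0.1, the smallest that 3 against 3 libraries allow. Shares are parts of a whole, so a larger Tlr2 share lowers the others and these are not separate results. Whether the summed level of the endosomal receptors differed was not tested. The sum itself ran from 74.7 to 76.7 CPM per kilobase in control and from 77.6 to 102 in knockout, with knockout library 1 the highest. A larger share of Tlr2 thus stood beside lower shares of Tlr13 (27.8% ± 2.96 to 16.4% ± 1.53) and Tlr9 (3.91% ± 0.678 to 1.43% ± 0.464).

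**Figure D2:**
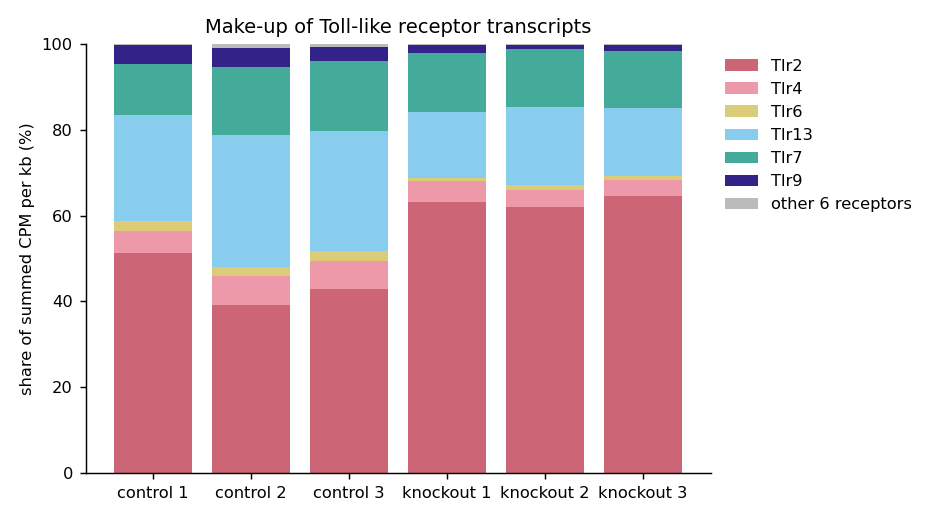
Share of each Toll-like receptor in the summed CPM per kilobase of the 12 receptor genes, in percent, with 1 bar per library. Tlr2 takes 39.0% to 51.2% of the control bars and 62.0% to 64.7% of the knockout bars.

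Between the groups, 11 of the 33 tested genes passed the test, 2 higher and 9 lower in knockout. Higher were Tlr2 and the kinase gene Ripk2. Lower were Tlr6, Tlr9 and Tlr13, the IRAK kinase genes Irak1 and Irak3, the ligase genes Traf3 and Traf6, and the cytosolic sensor genes Nod1 and Nlrx1. The test was edgeR's quasi-likelihood test with Benjamini-Hochberg adjustment over all 11453 genes tested and a threshold of 0.05. It called 25.3% of all genes, 11.8% higher and 13.5% lower, beside 33.3% of these 33. Their median log2 fold change (knockout minus control) was -0.19, beside 0.01 over all genes. The CPM values of the groups did not overlap for 4 of the 33 on the higher side and 14 on the lower side, where 43% of all tested genes do not overlap (21.1% higher, 21.8% lower). The share of calls in either direction is not far from that of all genes. By direction it was larger on the lower side (9 of 33 beside 13.5%) and smaller on the higher side (2 of 33 beside 11.8%). The set was not tested as such, and nothing is read from these shares about the pathway as a whole. The remaining 6 genes, Tlr1, Tlr3, Tlr5, Tlr8, Tlr11 and Tlr12, had too few counts for the test. Scaling by total counts alone moved the median of all genes to -0.14 and gave 2 higher and 12 lower among the 33. It also moved the calls over all genes from 1353 higher and 1543 lower to 667 and 2212. Single libraries moved the count further. Without control library 2 edgeR called 0 of the 33 higher and 2 lower (3 and 9 at an unadjusted p under 0.05), and without control library 3 it called 2 and 4. Leaving out knockout library 1 gave 4 and 12, and leaving out knockout library 2 or 3 gave 2 and 2, with 34 genes of the set tested in each. The share of all genes called moved as well, from 25.3% to 5.5% without control library 2 and 15.4% without control library 3. It was 42.2%, 8.89% and 10.4% without knockout libraries 1, 2 and 3.

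**Figure D3:**
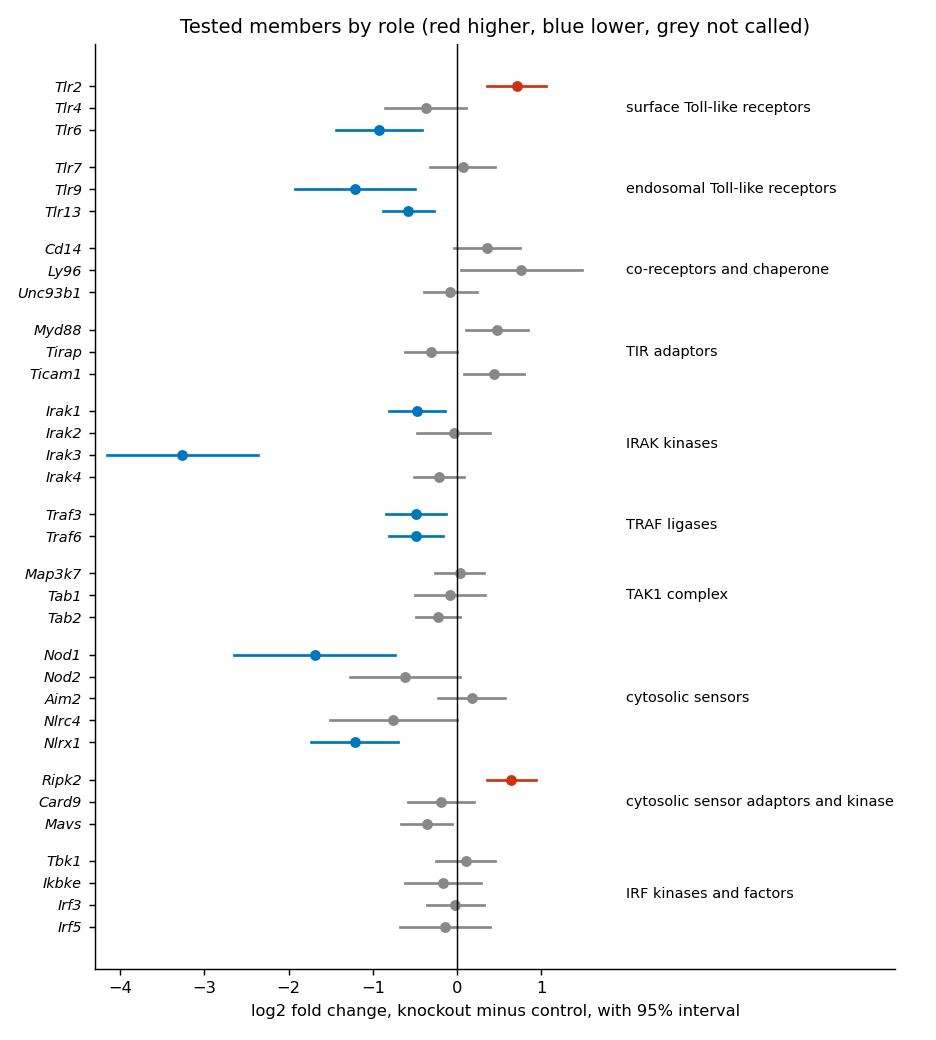
Log2 fold change (knockout minus control) of the 33 tested genes with its 95% interval, grouped by role; red is higher, blue lower and grey not called by edgeR at an adjusted p of 0.05. Irak3 lies farthest from 0, at -3.26, and the 2 red genes are Tlr2 and Ripk2.

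Of the surface receptors, Tlr2 was higher and Tlr6 lower. Tlr2 (ENSMUSG00000027995.10, chromosome 3, 83836272 to 83841767, mm10) had 118, 87.9 and 99 CPM in control libraries 1 to 3 and 193, 145 and 159 in knockout. Every knockout library was above every control library. The log2 fold change was 0.71 (SE 0.16, edgeR adjusted p = 0.0136), a 1.63-fold rise. Tlr6 (chromosome 5, 64952031 to 64960097) had 6.53, 5.69 and 6.55 CPM in control and 3.25, 3.56 and 3.08 in knockout. The groups were well apart and each was tight, and the log2 fold change was -0.92 (SE 0.23, edgeR adjusted p = 0.0188). TLR6 pairs with TLR2 to bind diacylated lipopeptides, so the balance of the transcripts of this pair was compared within each library. Per exon length there were 0.0448, 0.0523 and 0.0535 Tlr6 transcripts for each of Tlr2 in control libraries 1 to 3, and 0.0136, 0.0199 and 0.0157 in knockout. On the log2 scale the ratio was lower by a difference of -1.63 (exact two-sided permutation p = 0.1, the smallest possible here). The pair was chosen after its values were seen. It joins a gene called higher with one called lower, both without overlap of the groups. That p was therefore fixed in advance and adds nothing to the calls.

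The Tlr2 call was lost without control library 2 (0.61, adjusted p = 0.0789) and with each library's trends by exon length, GC content and chromosome removed (0.44, adjusted p = 0.0747). Those settings called 5.5% and 15% of all genes, beside 25.3% in the test as reported. Over the 16 alternatives of Tlr2 the edgeR, DESeq2 or limma adjusted p ran from 0.000652 to 0.0789. For Tlr6 it ran from 0.00566 to 0.0749, and leaving out control 2 (-0.99, adjusted p = 0.0733), control 3 (-0.88, 0.0685), knockout 2 (-0.98, 0.0567) or knockout 3 (-0.87, 0.0749) ended the call.

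Tlr1, the partner of TLR2 for triacylated lipopeptides, was under the filter: its control counts were 4, 32 and 39, and its knockout counts 4, 5 and 11. Control library 1 lay among the knockout libraries. With no filter on low counts its log2 fold change was -1.66 (SE 0.58, edgeR adjusted p = 0.0396). Tlr1 and Tlr6 are neighbouring genes of similar sequence, so reads may be shared or dropped between them. Tlr4 had 22.0, 28.9 and 27.9 CPM in control and 27.6, 16.9 and 16.6 in knockout (-0.38, SE 0.21, edgeR adjusted p = 0.217). Knockout library 1 lay among the controls while the other knockout libraries were below them, and without it Tlr4 was called (-0.66, adjusted p = 0.00774; 0.00774 to 0.518 over 16 alternatives).

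The LPS co-receptors did not pass the test. Cd14, which hands lipopolysaccharide to the receptor, had 44.5, 46.9 and 51.0 CPM in control and 45.1, 67.5 and 69.3 in knockout (0.35, SE 0.18, edgeR adjusted p = 0.158). Here again knockout library 1 was at the control level, and without it Cd14 was called (0.52, adjusted p = 0.00727; 0.00727 to 0.966 over 16 alternatives). Ly96, which encodes MD-2, the lipopolysaccharide-binding partner of TLR4, had 1.52, 2.31 and 3.12 CPM in control and 3.25, 4.37 and 4.38 in knockout (0.76, SE 0.32, adjusted p = 0.106). The Ly96 groups did not overlap, with control library 3 just under knockout library 1.

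Of the endosomal receptors, Tlr9 and Tlr13 were lower and Tlr7 was not called. Tlr9 (chromosome 9, 106222598 to 106226883) had 11.4, 11.3 and 8.35 CPM in control libraries 1 to 3 and 6.87, 2.82 and 3.68 in knockout. The groups did not overlap, with knockout library 1 closest to the controls. Its log2 fold change was -1.22 (SE 0.32, edgeR adjusted p = 0.0226), which is a level 2.32-fold lower. Tlr13 (chromosome X, 106143204 to 106160493) had 81.3, 98.5 and 92.4 CPM in control and 66.7, 60.4 and 55.3 in knockout. All knockout libraries were below the lowest control, with a log2 fold change of -0.58 (SE 0.14, edgeR adjusted p = 0.0161). Tlr7 (chromosome X, 167304929 to 167330558) had 37.3, 48.9 and 51.4 CPM in control and 57.4, 42.6 and 44.5 in knockout. Its groups overlapped, and the 95% interval of its log2 fold change of 0.07 ran from -0.32 to 0.45 (edgeR adjusted p = 0.798).

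Tlr8, a neighbour of Tlr7 on chromosome X, had 2, 5 and 6 counts in control and none in knockout. With 3 counts for the whole knockout group as the floor, the observed control level of Tlr8 was 3.94-fold above it. That figure leaves out the counting error of the 13 control counts. With no filter on low counts the log2 fold change of Tlr8 was -5.07 (SE 1.70, edgeR adjusted p = 0.0312). Unc93b1, the chaperone that carries these receptors from the endoplasmic reticulum to endosomes, was the most abundant gene of the set per exon length in control. It had 154, 141 and 121 CPM in control and 145, 117 and 131 in knockout (-0.08, SE 0.14, edgeR adjusted p = 0.695). Within libraries the ratio of Tlr9 to Tlr7 per exon length was 0.357, 0.270 and 0.191 in control and 0.141, 0.0776 and 0.0971 in knockout. That of Tlr13 to Tlr7 was 2.07, 1.91 and 1.71 in control and 1.10, 1.34 and 1.18 in knockout. Neither ratio overlapped between groups (exact two-sided permutation p = 0.1 for each; both chosen after their values were seen, among 5 ratios computed with the same p of 0.1, also after adjustment). Those p-values add nothing to the calls of Tlr9 and Tlr13.

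Both endosomal calls ended in 4 of the 16 alternatives, each with 1 library left out. Those settings called 5.5% to 21.2% of all genes, beside 25.3% in the test as reported. Omitting control 1 (-1.14, adjusted p = 0.0612), control 2 (-1.15, 0.0950), knockout 2 (-0.98, 0.0804) or knockout 3 (-1.09, 0.0858) ended the call of Tlr9, with edgeR, DESeq2 or limma adjusted p-values of 0.000404 to 0.0950 over the 16 alternatives. For Tlr13 the same held of control 2 (-0.51, adjusted p = 0.0931), control 3 (-0.56, 0.0506), knockout 2 (-0.58, 0.0585) and knockout 3 (-0.51, 0.0751), with a range of 0.00141 to 0.0931.

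**Figure D4:**
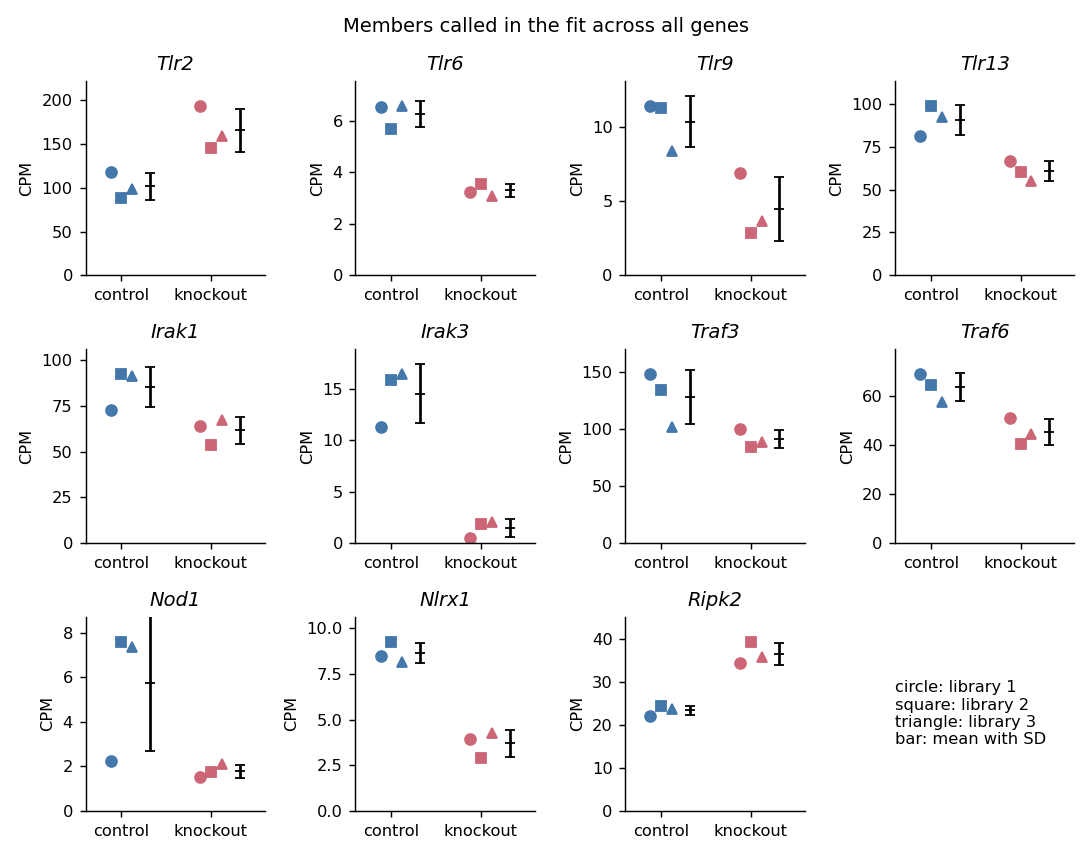
CPM in each library for the 11 genes called by edgeR; symbols mark the library number, and black bars give the mean with SD (n = 3). The groups do not overlap in any panel; in the Nod1 panel control library 1, at 2.24, lies just above the knockout libraries.

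The starts of 4 of these genes are shown because they are the receptor pair that moved in opposite directions, the lower DNA sensor and the gene with the largest fall. Each window runs from 250 bases before to 50 bases after the RefSeq start farthest 5′ (GRCm38.p6), and 32 of the 39 genes had an entry. Capitals mark matches, on either strand, to GGG and CC separated by any 5 bases (NF-kB), TGANTCA (AP-1) or GAGGAA (PU box). GAAA repeated after any 2 bases (ISRE) and TGACGTCA (CRE) were searched as well. The windows are chr3:83841559-83841858 (minus strand) for Tlr2, chr5:64959999-64960298 (minus) for Tlr6, chr9:106222348-106222647 (plus) for Tlr9 and chr10:120202081-120202380 (minus) for Irak3.
Tlr2: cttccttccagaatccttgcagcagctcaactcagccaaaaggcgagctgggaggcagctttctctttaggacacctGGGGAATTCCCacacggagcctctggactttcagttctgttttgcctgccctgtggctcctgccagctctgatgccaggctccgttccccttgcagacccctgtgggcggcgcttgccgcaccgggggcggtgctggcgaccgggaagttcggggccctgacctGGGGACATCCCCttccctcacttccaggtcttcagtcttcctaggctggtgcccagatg
Tlr6: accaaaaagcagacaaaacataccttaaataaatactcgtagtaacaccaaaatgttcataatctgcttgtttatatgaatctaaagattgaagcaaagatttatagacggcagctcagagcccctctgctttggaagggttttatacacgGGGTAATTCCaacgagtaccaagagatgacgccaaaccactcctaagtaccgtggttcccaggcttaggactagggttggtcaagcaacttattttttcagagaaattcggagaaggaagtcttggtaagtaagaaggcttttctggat
Tlr9: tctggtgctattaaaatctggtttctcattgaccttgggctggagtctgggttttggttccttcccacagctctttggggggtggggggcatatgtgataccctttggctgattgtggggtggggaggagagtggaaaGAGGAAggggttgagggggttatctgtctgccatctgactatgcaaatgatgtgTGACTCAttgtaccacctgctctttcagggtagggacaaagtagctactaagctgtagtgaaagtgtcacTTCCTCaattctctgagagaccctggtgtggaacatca
Irak3: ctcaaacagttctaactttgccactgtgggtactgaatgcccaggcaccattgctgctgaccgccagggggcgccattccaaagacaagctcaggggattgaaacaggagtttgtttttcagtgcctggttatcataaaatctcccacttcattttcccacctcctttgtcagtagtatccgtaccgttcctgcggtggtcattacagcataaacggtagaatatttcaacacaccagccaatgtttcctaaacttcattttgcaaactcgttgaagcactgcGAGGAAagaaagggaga
In the Tlr2 window the NF-kB letters were found 5 times in 2 stretches, with matches that overlap one another, the first starting 173 bases before the start and the last 7 bases before it. Tlr6 had 1 such match, starting 99 bases before the start. Tlr9 had an AP-1 match 58 bases before its start and a PU box 112 bases before it, with another on the opposite strand inside the transcript. Irak3 had 1 PU box inside the transcript. These letters are common: the NF-kB pattern was in 50.4% of the 27025 RefSeq windows and in 19 of the 32 windows of these genes. The PU box was in 28.3% of all windows and in 12 of the 32, and the AP-1 letters were in 7.92% and in 2 of the 32 (Tlr9 and Ikbke). ISRE letters were in 3.49% and in 2 of the 32 (Myd88 and Tlr11). CRE letters, present in 1.85% of all windows, were in none of the 32. A match is a run of letters and not a measured binding site.

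The adaptors next to the receptors did not pass the test. Myd88 had 59.6, 51.0 and 54.5 CPM in control and 59.0, 81.3 and 88 in knockout (0.47, SE 0.17, edgeR adjusted p = 0.0620). Knockout library 1 was within the control range and the other knockout libraries above it, and without library 1 Myd88 was called (0.62, adjusted p = 0.00276; 0.00276 to 0.218 over 16 alternatives). Its gene overlaps Acaa1a on the other strand (0.36, adjusted p = 0.0645), and reads of the pair cannot be told apart without a stated strand setting. Ticam1, which encodes TRIF, the adaptor of TLR3 and of internalized TLR4, had 13.4, 18.8 and 16.3 CPM in control and 21.9, 22.7 and 21.1 in knockout (0.43, SE 0.16, adjusted p = 0.0715). Its groups did not overlap, but it lies on chromosome 17, where all 597 tested genes had a median log2 fold change of 0.38. With length, GC and chromosome trends removed, Ticam1 was at -0.02 (adjusted p = 0.931; 0.0628 to 0.931 over 16 alternatives). Tirap, the bridging adaptor of TLR2 and TLR4, had 27.3, 34.2 and 30.1 CPM in control and 25.4, 24.6 and 24.2 in knockout (-0.31, SE 0.14, adjusted p = 0.121). It overlaps Srpr, which is more abundant (218 ± 39.5 CPM against 243 ± 10.3 in knockout; SD, n = 3).

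Irak3 had the largest fold change of the 33 tested genes. The gene encodes IRAK-M, a catalytically inactive member of the family known as a brake on signalling downstream of MYD88. Irak3 (ENSMUSG00000020227.10 in the annotation, chromosome 10) was counted 126, 269 and 412 times in control and 6, 28 and 42 times in knockout. In CPM these were 11.3, 15.9 and 16.5 in control and 0.453, 1.88 and 2.09 in knockout. All knockout libraries lay far below the lowest control. Its log2 fold change was -3.26 (SE 0.40, 95% interval -4.16 to -2.36, edgeR adjusted p = 0.00105), a level 9.57-fold lower. Of all tested genes, 6.05% were called lower by 2-fold or more and 0.786% were called higher by as much. Irak3 was called in all 16 alternatives, with log2 fold changes from -3.60 to -2.88 and adjusted p-values up to 0.00696. Its exons overlap those of Tmbim4 on the other strand, which was higher in knockout (34.4 ± 2.76 to 48.9 ± 6.96 CPM; 0.51, edgeR adjusted p = 0.0330), and reads of the shared exons cannot be told apart.

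The other IRAK genes were closer to the control level. Irak1, the kinase that passes the signal to TRAF6, had 72.8, 92.4 and 91.3 CPM in control and 63.9, 53.6 and 67.5 in knockout. The gap between control library 1 and knockout library 3 was small, and the log2 fold change was -0.47 (SE 0.15, edgeR adjusted p = 0.0434). The Irak1 call was lost without control library 2 (-0.41, adjusted p = 0.180) or 3 (-0.42, 0.131), without knockout library 2 (-0.38, 0.153) or 3 (-0.54, 0.0822), and with length, GC and chromosome trends removed (-0.29, 0.148). Over its 16 alternatives the adjusted p ran from 0.0193 to 0.180. Irak4, the first kinase of the chain, had 21.8, 22.5 and 23 CPM in control and 18.6, 19.1 and 20.4 in knockout (-0.21, adjusted p = 0.257), and overlaps Twf1. Irak2, which sustains the response, had 24.5, 26.4 and 27.6 CPM in control and 34, 21.4 and 21.0 in knockout (-0.04, adjusted p = 0.889). The Irak2 knockout libraries lay on both sides of the controls. Per exon length there were 0.199, 0.221 and 0.231 Irak3 transcripts for each of Irak1 in control and 0.00909, 0.0450 and 0.0397 in knockout, a ratio chosen after its values were seen (exact two-sided permutation p = 0.1). That p rests on the far lower Irak3 and adds nothing to the calls.

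Both ubiquitin ligase genes were lower, by nearly the same amount. Traf6, which activates TAK1 downstream of the IRAK kinases, had 68.8, 64.3 and 57.6 CPM in control and 51.1, 40.6 and 44.3 in knockout (-0.49, SE 0.14, edgeR adjusted p = 0.0328). Traf3, which links the adaptors to TBK1 and interferon production, had 148, 135 and 101 CPM in control and 99.7, 84.7 and 89.0 in knockout (-0.49, SE 0.16, adjusted p = 0.0482). Control library 3 was nearly as low as knockout library 1 for Traf3. With each library's trend by exon length and GC content removed neither was called (Traf6 -0.29, adjusted p = 0.116; Traf3 -0.29, 0.128). With chromosome medians removed too, Traf6 was at -0.08 (adjusted p = 0.665) and Traf3 at -0.26 (0.191). In that order these corrections called 20.2% and 15% of all genes, beside 25.3% in the test as reported. Limma-voom did not call Traf3 (-0.47, adjusted p = 0.0501). Leaving out control library 1 or 2, or knockout library 2 or 3, ended both calls, with adjusted p-values of 0.0766, 0.130, 0.120 and 0.112 for Traf6 and 0.133, 0.171, 0.150 and 0.141 for Traf3. Traf6 was also lost without control library 3 (-0.55, adjusted p = 0.0535). Over the 16 alternatives the adjusted p ran from 0.00517 to 0.665 for Traf6 and from 0.0152 to 0.191 for Traf3.

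The TAK1 complex downstream was not called. Map3k7, the gene of TAK1, had 167, 180 and 177 CPM in control and 156, 197 and 182 in knockout (0.03, 95% interval -0.26 to 0.32, edgeR adjusted p = 0.878). Its subunit Tab1 averaged 34.2 ± 6.50 CPM for control and 32.1 ± 6.07 for knockout (-0.09, adjusted p = 0.756). Tab2, which binds the ubiquitin chains that TRAF6 makes, was at 113 ± 5.73 and 96.5 ± 4.24 CPM (-0.23, SE 0.12, adjusted p = 0.177; SD, n = 3). The groups overlapped for Map3k7 and Tab1 and not for Tab2.

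Of the cytosolic sensors, Nod1 and Nlrx1 were lower. Nlrx1, a mitochondrial member of the NOD-like family (chromosome 9), had 8.50, 9.24 and 8.15 CPM in control and 3.93, 2.89 and 4.28 in knockout. The groups were well apart, with a log2 fold change of -1.22 (SE 0.23, edgeR adjusted p = 0.00760). It was called in all 16 alternatives, from -1.37 to -0.96, with adjusted p-values up to 0.0495. Nod1, a sensor of bacterial peptidoglycan fragments (chromosome 6), was counted 25, 128 and 184 times in control and 20, 26 and 42 times in knockout, or 2.24, 7.59 and 7.35 against 1.51, 1.75 and 2.09 CPM. Control library 1 was close to the knockout libraries. Its log2 fold change was -1.69 (SE 0.43, edgeR adjusted p = 0.0205), and without control library 1 it was -2.05, still called. The Nod1 call was lost without control library 2 (-1.45, adjusted p = 0.0980) or 3 (-1.47, 0.0666), or knockout library 2 (-1.68, 0.0746) or 3 (-1.82, 0.0563), within a range of 0.000704 to 0.0980.

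The remaining sensors were not called. Nod2, the muramyl dipeptide sensor, had 4.65, 6.04 and 5.39 CPM in control and 4.08, 2.22 and 4.18 in knockout (-0.62, SE 0.29, edgeR adjusted p = 0.141). Nlrc4, which forms an inflammasome with NAIP proteins, averaged 5.01 ± 1.41 CPM in control against 2.95 ± 1.06 (SD, n = 3) in knockout (-0.76, adjusted p = 0.119). Like Ticam1 it lies on chromosome 17, and with length, GC and chromosome trends removed it was called (-1.10, adjusted p = 0.0496; 0.0496 to 0.349 over 16 alternatives). Aim2, the sensor of cytosolic DNA, was by far the most abundant of the 5 sensors, at 92.7, 126 and 148 CPM in control and 121, 145 and 148 in knockout (0.17, 95% interval -0.22 to 0.57, adjusted p = 0.494). Per exon length Aim2 was at 35 ± 8.01 CPM per kilobase in control (SD, n = 3), against 1.5 ± 0.0971 for Nlrx1, the next of the sensors.

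Ripk2, the kinase that NOD1 and NOD2 signal through, was higher. It had 22.1, 24.3 and 23.6 CPM in control and 34.4, 39.2 and 35.7 in knockout (0.64, SE 0.13, edgeR adjusted p = 0.00950). The groups were far apart relative to their spread. The call was lost without control library 2 (0.67, adjusted p = 0.0513) and with length, GC and chromosome trends removed (0.37, 0.0654), within a range of 0.000619 to 0.0654. In each knockout library more Ripk2 stood beside less Nod1. There were 0.0561, 0.173 and 0.173 Nod1 transcripts per Ripk2 transcript, by exon length, in control libraries 1 to 3, and 0.0243, 0.0247 and 0.0325 in knockout (exact two-sided permutation p = 0.1; the pair joins a gene called lower with one called higher and was chosen after its values were seen, so that p adds nothing to the calls). Card9, the adaptor of C-type lectin signalling, was at 72.8 ± 8.44 CPM in control and 63.7 ± 14.4 in knockout (-0.19, adjusted p = 0.437). Knockout library 1 was high for Card9 (80.1 CPM against 57.6 and 53.4), and without it the gene was called (-0.39, adjusted p = 0.0400; 0.0400 to 0.824 over 16 alternatives). Mavs, the mitochondrial adaptor of the RNA helicase sensors, had 42.1, 46.9 and 41.4 CPM in control and 37.7, 31.7 and 32.3 in knockout (-0.36, SE 0.14, adjusted p = 0.0740). It was called lower in 4 of its 16 alternatives, among them the length and GC correction (-0.44, adjusted p = 0.0353; 0.0200 to 0.275 over all 16) and the data without knockout library 1 (-0.45, 0.0200).

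The kinases and factors of the interferon arm were not called. Tbk1, which phosphorylates IRF3, was at 77.5 ± 10.3 CPM in control and 83.2 ± 12.2 in knockout (0.10, 95% interval -0.25 to 0.45, edgeR adjusted p = 0.655). Its relative Ikbke was at 30.1 ± 8.45 and 26.8 ± 1.67 CPM (-0.17, adjusted p = 0.555), with control library 1 (20.3) below all others. Irf3 was at 31.9 ± 3.31 and 31.4 ± 4.29 CPM (-0.02, 95% interval -0.36 to 0.32, adjusted p = 0.926). Irf5, a factor of inflammatory cytokine genes, was at 70.0 ± 10.9 and 63.3 ± 21.6 CPM (-0.14, adjusted p = 0.681; SD, n = 3). The Irf5 values were lowest in library 1 of each group, at 57.9 CPM in control and 39.0 in knockout. Irf3 overlaps Bcl2l12 and Irf5 overlaps Tnpo3 on the other strand, and neither neighbour was called.

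**Figure D5:**
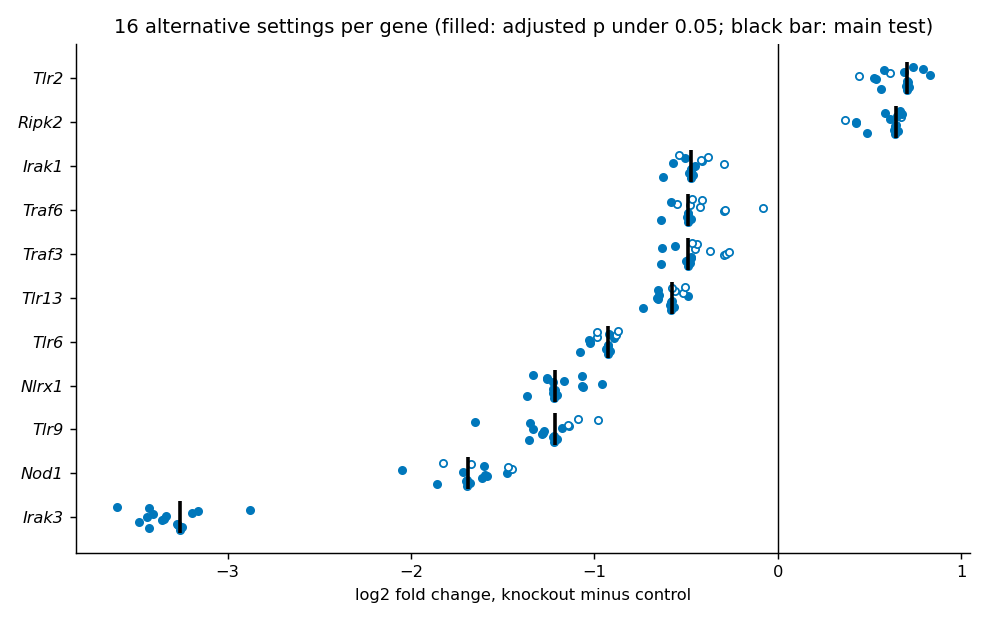
Log2 fold change of the 11 called genes under 16 alternative settings, with filled points for adjusted p-values under 0.05, open points for those above, and a black bar for the test as reported. All points of a gene lie on its side of 0; Irak3 and Nlrx1 are filled throughout, and Traf6 reaches -0.08.

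A wider list of 85 genes that fold, deliver, relay or restrain these signals was read from the same test. Of 71 tested, 5 were higher and 16 lower, with a median log2 fold change of -0.11. That is 29.6% called, beside 25.3% of all genes (11.8% higher, 13.5% lower). Leaving out control library 2 gave 1 higher and 5 lower, control library 3 gave 3 and 9, knockout library 1 gave 10 and 25, and knockout library 2 or 3 gave 2 and 8. In the same order these settings called 5.5%, 15.4%, 42.2%, 8.89% and 10.4% of all genes. Among genes of receptor folding and traffic, 3 of 9 were higher and 1 lower, where 11.8% of all tested genes were called higher and 13.5% lower. Hsp90b1, the chaperone gp96 that folds most Toll-like receptors, had 1351, 1452 and 1481 CPM in control and 1574, 2819 and 2282 in knockout (0.64, SE 0.20, edgeR adjusted p = 0.0391). Its cofactor Cnpy3 went from 59.3 ± 2.34 to 89.5 ± 3.96 CPM (0.60, adjusted p = 0.00926; SD, n = 3) and Rftn1 from 45.1 ± 9.08 to 63.8 ± 3.67 (0.51, adjusted p = 0.0442). Cd36, a co-receptor of the TLR2 and TLR6 pair, went from 64.0 ± 22.5 to 13.0 ± 2.04 CPM (-2.30, SE 0.24, adjusted p = 0.000500). Of these, Cd36 was called in all 16 alternatives. Cnpy3 and Rftn1 lie on chromosome 17, where the median log2 fold change was 0.38. For Cnpy3 the call ended on leaving out control 2 (0.60, adjusted p = 0.0568) and with length, GC and chromosome trends removed (0.12, 0.408), and its adjusted p ran from 0.000149 to 0.408. Hsp90b1 was called in 7 and Rftn1 in 10 of 16; leaving out control library 2 or 3, or knockout library 2 or 3, ended both, with log2 fold changes of 0.43 to 0.67 for Hsp90b1 and 0.39 to 0.49 for Rftn1. Hsp90b1 was lost without control library 1 too (0.60, adjusted p = 0.102). With length, GC and chromosome trends removed Rftn1 was at 0.16 (adjusted p = 0.472). Over 16 alternatives the adjusted p ran from 0.000494 to 0.137 for Hsp90b1 and from 0.0157 to 0.472 for Rftn1.

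Of 10 tested C-type lectin and inflammasome genes, 5 were lower and 1 higher, where 13.5% of all tested genes were called lower and 11.8% higher. Lower were Syk and Malt1 of the C-type lectin pathway and the flagellin and secretion-system sensors Naip2, Naip5 and Naip6, whose sequences are close enough for reads to be shared. Without control library 2 Syk (-0.45, edgeR adjusted p = 0.127), Naip2 (-0.76, 0.0931) and Naip6 (-1.15, 0.0842) were no longer called, and Syk was also lost with the length and GC trend removed (-0.17, 0.262). Their adjusted p ran from 0.00452 to 0.289 for Syk, from 0.000747 to 0.0931 for Naip2 and from 0.000231 to 0.0842 for Naip6. Leaving out knockout library 2 or 3 ended these 3 calls as well, and leaving out control library 3 those of Syk and Naip6. Malt1 had -0.82 (SE 0.15, edgeR adjusted p = 0.00670) but was not called once the length and GC trend was removed (-0.35, 0.0801), within a range of 4.83e-05 to 0.527. Naip5 had -1.51 (SE 0.33, adjusted p = 0.0121) and of its 16 alternatives was lost only without control library 2 (-1.41, 0.0609, the highest; the lowest was 0.000166). The lectin gene Clec4d was higher (0.83, SE 0.17, adjusted p = 0.00960), and was not called after the length and GC correction (0.37, 0.060), within a range of 0.000150 to 0.227. Of 7 tested RNA and DNA sensor genes, Ddx58, encoding RIG-I, and Cgas were lower, and Ddx41 was higher (0.36, edgeR adjusted p = 0.0461). All 3 calls ended without control library 2 (Ddx58 -0.93, adjusted p = 0.102; Cgas -0.49, 0.126; Ddx41 0.34, 0.193), and equally without control library 3, knockout library 2 or knockout library 3. Ddx58 was called in 12, Cgas in 9 and Ddx41 in 6 of 16 alternatives, with adjusted p-values up to 0.102, 0.126 and 0.194.

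Of 23 other signal carriers, Ticam2, Xiap, Ikbkg and Birc2 were lower and none was higher, beside 13.5% and 11.8% of all genes. Ikbkg (-0.54, edgeR adjusted p = 0.108) and Birc2 (-0.52, 0.165) were not among the calls without control library 2, nor without control library 3, knockout library 2 or knockout library 3. Their adjusted p ran from 0.00199 to 0.150 for Ikbkg and from 0.0187 to 0.165 for Birc2. Ticam2 encodes TRAM, which couples TRIF to TLR4, and had 1.34, 3.02 and 2.56 CPM in control and 0.906, 0.201 and 0.298 in knockout (-2.37, SE 0.55, edgeR adjusted p = 0.0152). Leaving out control 2 (-2.13, adjusted p = 0.0764), knockout 2 (-2.02, 0.0656) or knockout 3 (-2.09, 0.0660) ended the call, within a range of 0.000858 to 0.0764. The Ticam2 gene overlaps Tmed7 on the same strand of chromosome 18. Tmed7 was far more abundant, with a mean of 115 CPM for the control libraries and 107 for the knockout ones. It was not called (-0.11, edgeR adjusted p = 0.546). Reads of any shared exons cannot be told apart, even with a strand setting, and their part in the Ticam2 values was not tested. Xiap, an inhibitor of apoptosis that ubiquitinates RIPK2, was lower by a log2 fold change of -0.66 (SE 0.14, adjusted p = 0.0101), and was lost without control library 2 (-0.65, 0.0582) and with length, GC and chromosome trends removed (-0.29, 0.0995). Its lowest adjusted p was 0.000395. Of 16 tested negative regulators 3 were lower and none higher, 18.8% called beside 25.3% of all genes, with 9 positive and 7 negative log2 fold changes and a median of 0.07. The 3 were Sigirr (7.73 ± 0.928 to 3.26 ± 0.771 CPM; -1.24, adjusted p = 0.0100), Il1rl1 (24.5 ± 1.58 to 9.13 ± 2.18; -1.42, 0.00171) and Inpp5d. Sigirr and Il1rl1, which encode receptors of the interleukin 1 family, were called in all 16 alternatives. Inpp5d was called in 6 of 16 and was lost on leaving out any library other than knockout library 1 (without control library 2 -0.36, adjusted p = 0.183; 0.0110 to 0.259 over all 16). Regulators that were not called included Nfkbia, the gene of the NF-kB inhibitor, at 0.59 (adjusted p = 0.0593). Of the other 6 interferon regulatory factors Irf7 alone passed the test (2.51, 3.44 and 3.28 CPM in control against 0.906, 0.806 and 0.696 in knockout; -1.95, SE 0.33, adjusted p = 0.00473), also in all 16 alternatives.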

How the data were processed

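RNA-seq libraries of DC2.4 cells and of their PD-L1 knockout derivative were compared, 3 per group. RNA extraction used TRIzol and library preparation a KAPA Hyper Prep kit (labels' protocols). The submitters' processing notes name Trimmomatic 0.39, STAR 2.7.5c, StringTie 2.1.7 and mm10; annotation release, counting step and strand: not given in the sources used here. The deposited values are raw read counts per gene. Counts were filtered with filterByExpr (11453 genes kept), scaled by TMM and tested with edgeR 4.0.16 (quasi-likelihood, two-sided; R 4.3.3, limma 3.58.1, DESeq2 1.42.0). The common biological coefficient of variation was 17.5%. The steps were tested on simulated data. Exon lengths, GC content and positions came from GENCODE M21 (99.5% of tested genes matched), promoters from RefSeq. The members and lists were chosen with earlier results of these data known. Called genes and receptors are given per library; of the wider list, at most 8 called genes per direction without overlap of the groups were to be named; the other 8 lower genes are named too, to complete the counts, chosen after their values were seen. One symbol of that list, Clec7a, is not analysed here. Floors are 3 counts over a group and cover counting error only.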

Additional observations from a re-analysis of the deposited data

How the results depend on the processing

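The settings varied were the scaling, the filter on low counts, the tool, the replicate number as a block, length, GC and chromosome corrections, and each library in turn. The test as reported gave 2 genes higher and 9 lower, and in the wider list 5 and 16. With no library left out, the 39 genes gave 2 or 3 higher and 7 to 12 lower, except that removing length, GC and chromosome trends left 0 higher (edgeR; 3 at an unadjusted p under 0.05), with 2 higher and 10 lower in the wider list. That setting called 15% of all genes and the length and GC correction alone 20.2%, beside 25.3% in the test as reported. Total counts alone left 2 of the wider list higher. Leaving out 1 library gave 0 to 4 higher and 2 to 12 lower of the 39, and 1 to 10 higher and 5 to 25 lower of the wider list. The fewest genes were called without control library 2, where edgeR called 5.5% of all genes and 3 of the 39 were higher and 9 lower at an unadjusted p under 0.05, and the most without knockout library 1, where it called 42.2%. None of the 32 called genes of both lists changed sign in any of 512 gene and setting pairs. The groups did not overlap for any of the called genes, so leaving out 1 library could hardly change a sign. Their unchanged signs therefore add nothing to the calls. The 22 of the 39 genes that were tested and not called changed sign in 26 of 352 pairs. The replicate block gave 2 higher and 9 lower of the 39 and 6 and 14 of the wider list. Whether the numbers pair the samples was not settled. Deviations from group means correlated across genes at 0.154, -0.064 and 0.358 for libraries 1, 2 and 3. For libraries 1 and 3 the same number gave the highest correlation, while control library 2 correlated better with knockout library 1 (0.141). Tlr1, Tlr3, Tlr5, Tlr8, Tlr11 and Tlr12 had too few counts for the test at this depth.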
